A study of Gallus gallus with 6 samples.

Results

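MicroRNAs are short RNAs cut from a hairpin in a longer primary transcript, first in the nucleus by DROSHA with DGCR8 and then in the cytoplasm by DICER1. The mature strand is loaded into an Argonaute protein, which it guides to messenger RNAs for repression. Many hairpins lie inside introns of protein-coding genes, and others lie in long non-coding transcripts, often several to one transcript. In the lens, microRNAs such as mir-204 and the let-7 family have been studied in epithelial and fiber cells, and in many mammalian cells mir-210 is the microRNA best known to be induced by the hypoxia-inducible factor HIF1.

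The loci described here are the microRNA precursor loci of chick lens cells, with their FPKM (fragments scaled to locus length and to the number of mapped fragments). They were chosen by name and by level, as the rows of the deposited table that carry only gga-mir or gga-let names and have a mean of at least 1 FPKM over 6 libraries. Of the 17340 loci in the table, 675 carry only microRNA names, and 214 of these reached that mean. The other rows were 302 listed at 0 in all 6 libraries and 159 above 0 with a lower mean. A further 126 rows join a microRNA with another gene in one assembled locus, such as TRPM3 with gga-mir-204-1 and VMP1 with gga-mir-21, and are not among the 214.

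The treated cells were primary lens cells of White leghorn chick embryos at embryonic day 10, treated with 1 mM DMOG (dimethyloxalylglycine) for 4 h (3 libraries). They were set against the same kind of cells, untreated (3 libraries). DMOG blocks the prolyl hydroxylases that mark HIF1α for degradation, and as a mimic of 2-oxoglutarate it can also act on other dioxygenases, so it stands for HIF1α activation only in part. Total RNA libraries of this kind read RNA that runs through a hairpin, and they do not measure the mature microRNA. The study describes the 3 libraries of a condition as biological triplicates, and the labels number them without naming separate preparations.

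Lens markers were present, with 16 of 18 rows at a mean of at least 1 FPKM and a mean of 796 FPKM for CRYAA, the αA-crystallin gene, while all 6 globin genes with a row were listed at 0. The erythroid heme synthesis gene ALAS2 measured 11.64, 10.03 and 8.12 FPKM with DMOG, against 12.91, 11.85 and 10.01 FPKM without. The deposited values give no read depth. Rfam-named structural RNA loci took from 28.3% to 41.9% of the summed FPKM in DMOG libraries and from 27.7% to 32.7% in untreated libraries. Among the 9816 loci of any kind at or above that level, which are called the tested loci, from 1.30% to 4.15% were listed at 0 in a DMOG library, against 0.815% to 1.82% in an untreated library. Whether these differences between libraries have a part in the results on microRNA loci was not tested.

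The 214 loci took 0.487%, 0.488% and 0.492% of the summed FPKM in DMOG libraries 1, 2 and 3, against 0.557%, 0.557% and 0.438% in untreated libraries 1, 2 and 3. The untreated libraries lay on both sides of the DMOG libraries, and the smallest p an exact permutation test of 3 against 3 libraries allows is 0.1. In bulk RNA, fewer cells of a type and less RNA per cell cannot be told apart. Most microRNA loci were low: 66 had a mean from 1 to under 2 FPKM, 90 from 2 to under 5, 41 from 5 to under 10, and 17 of at least 10 FPKM.

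Reads at these loci were patchy. Of the 1284 values of the 214 loci in 6 libraries, 404 (31.5%) are listed at 0. Only 52 loci (24.3%) were above 0 in every library, against 9163 (93.3%) of the 9816 tested loci. The gap was present within each range of level: 3 of 66 microRNA loci from 1 to under 2 FPKM were above 0 in every library, against 1151 of 1508 tested loci in that range, and 17 of 41 from 5 to under 10 FPKM, against 2519 of 2564. From 10 FPKM upward, 16 of 17 microRNA loci were above 0 throughout. A hairpin is short, with a median length of 88 bases for the 201 names that match 1 microRNA entry in RefSeq (assembly GRCg7b). At such a length one fragment is worth more FPKM than at a long gene. Whether length has a part in the zeros was not tested.

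Libraries of DMOG-treated cells listed 63, 92 and 98 of the 214 loci at 0, against 67, 37 and 47 in untreated libraries. DMOG libraries 2 and 3 had the highest counts, DMOG library 1 lay just below untreated library 1, and the conditions overlapped. The median locus stood at 2.37, 1.495 and 1.815 FPKM in the DMOG libraries, against 2.29, 2.815 and 2.515 FPKM in the untreated libraries. Over all tested loci, the microRNA loci included, zeros were also most frequent in DMOG libraries 2 and 3, at 2.51% and 4.15%. The loci outside the microRNA set were not counted apart.

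**Figure D1:**
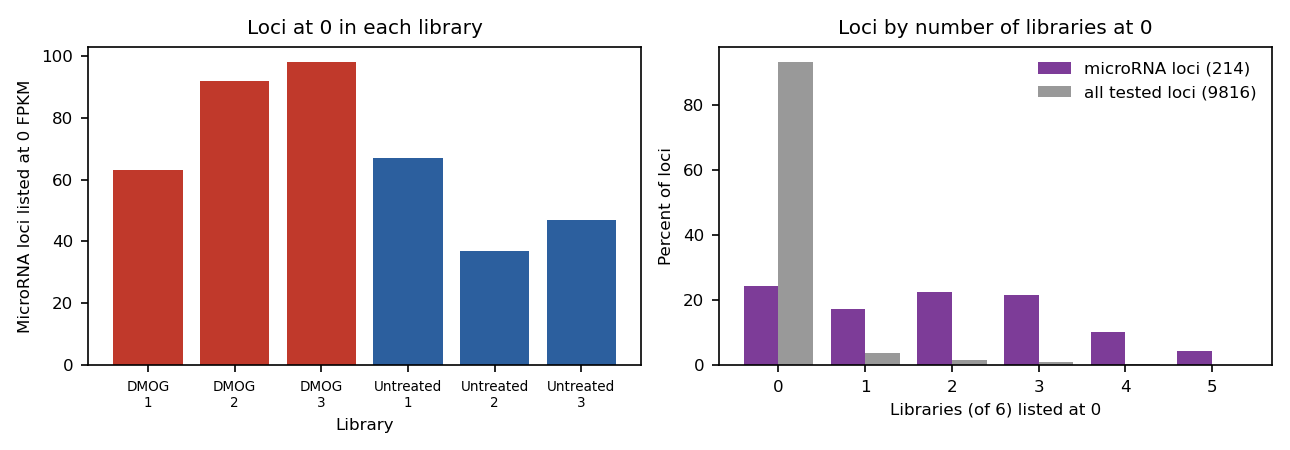
Left, number of the 214 microRNA loci listed at 0 FPKM in each DMOG library (red) and each untreated library (blue), from 37 in untreated library 2 to 98 in DMOG library 3. Right, percent of microRNA loci (purple) and of all 9816 tested loci (grey) by the number of libraries, of 6, in which they are listed at 0: 24.3% of microRNA loci and 93.3% of tested loci were at 0 in none.

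Libraries ordered the microRNA loci only loosely alike. Spearman's rho between libraries of one condition ranged from 0.16 to 0.45 over the 214 loci, and between a DMOG and an untreated library from 0.20 to 0.35. Over all 9816 tested loci the ranges were 0.80 to 0.90 within a condition and 0.81 to 0.89 between conditions. These are correlations across loci, which share library and depth, and are given as a description. At loci above 0 in every library, the median replicate SD of log2(FPKM + 0.5) was 0.71 for microRNA loci, against 0.37 for tested loci. Neither the rho nor the SD was compared at matched levels. The median of the mean FPKM was 2.94 over all microRNA loci and 5.94 over all tested loci.

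DMOG and untreated cells were compared at each locus with limma on log2(FPKM + 0.5), fitted over all 9816 tested loci. The limits used to call a difference, a change of 0.60 or more on the log2 scale with an unadjusted p under 0.05, are those of the study. Past these limits were 18 microRNA loci lower with DMOG (8.41%), beside 4.97% of all tested loci, and 9 higher with DMOG (4.21%), beside 2.84% of all tested loci. With p-values adjusted by Benjamini-Hochberg across the 9816 loci, 2 of the 214 (0.935%) were lower at an adjusted p under 0.05. Both are among the 18. Of all 9816 tested loci, 3 (0.0306%) were lower at that limit, and these 3 include the 2 microRNA loci. By limma none of the higher microRNA loci had an adjusted p under 0.05, beside 0.163% of tested loci. At an unadjusted p under 0.05 there were 28 of the 214 loci (13.1%), 9 of them higher. Beside them stand 883 of all 9816 tested loci in either direction. The counts are a description: 36 loci reached 1 FPKM only in the DMOG mean and 33 only in the untreated mean, so the choice by level itself favours loci that differ.

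The 3 DMOG libraries lay below the 3 untreated ones at 17 microRNA loci (7.94%), beside 11.4% of tested loci, and above them at 10 (4.67%), beside 4.47%. By this measure the share of lower loci was below that of the table as a whole. The median log2 fold change was -0.12 over the microRNA loci and -0.13 over all tested loci, a difference of 0.01, and the median size of the change was 0.90 against 0.28. Without the 24 loci listed at 0 throughout one condition, the median was -0.09 over the other 190. With quantile normalization the split was 13 lower and 14 higher, so that 51.9% of calls were higher under it, beside 33.3% as fitted. Over all tested loci the same setting gave 320 lower and 410 higher (56.2% higher), beside 36.4% higher as fitted, and median scaling gave 323 lower and 413 higher. The excess of lower over higher calls in the whole table therefore turned with the scaling, while median scaling left 17 lower and 11 higher microRNA loci. Leaving out DMOG library 2 gave 15 higher loci in place of 9.

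**Figure D2:**
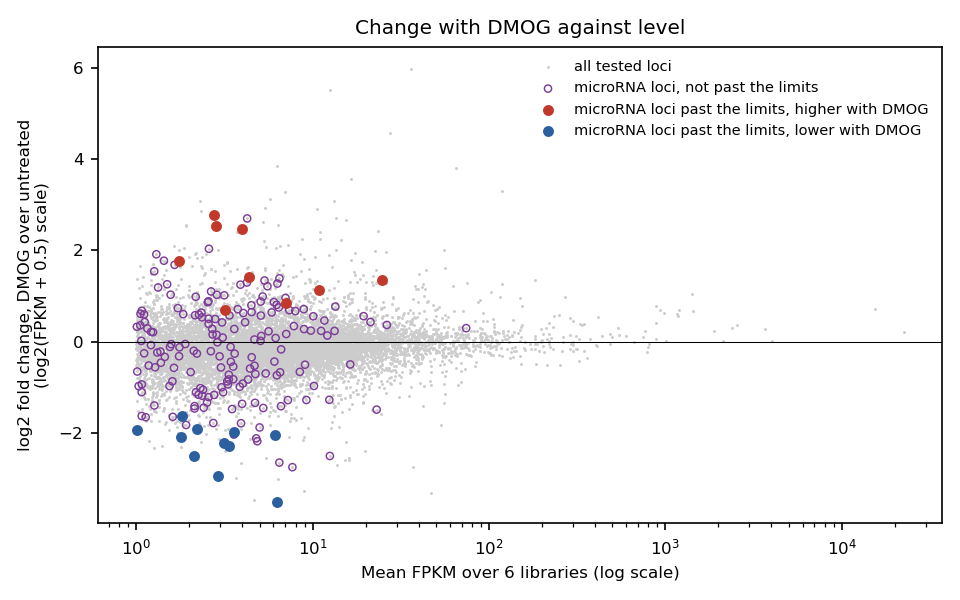
Log2 fold change of DMOG over untreated cells, on the log2(FPKM + 0.5) scale, against mean FPKM over 6 libraries on a log axis. Grey points are all tested loci, open circles microRNA loci not past the limits, and filled circles those past the limits, red for higher and blue for lower with DMOG. Loci listed at 0 throughout one condition are left out. The microRNA loci spread more widely than the grey points. With the loci left out included, the median size was 0.90 over all 214, against 0.28 over all 9816.

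One of the pair of loci with an adjusted p under 0.05 was gga-mir-31 (MSTRG.130393), a microRNA conserved between birds and mammals that in human cells acts on the mRNA of HIF1AN, an oxygen-dependent inhibitor of HIF1α. It measured 1.47, 2.58 and 2.39 FPKM in DMOG libraries, against 10.83, 9.11 and 10.51 FPKM in untreated libraries. Every DMOG value was under 3 FPKM and every untreated value over 9 FPKM. On the log2 scale the change was -2.03 (SE 0.26, adjusted p 0.0391). It ranged from -2.22 to -1.83 over 15 other settings, past the limits in each. The adjusted p ranged from 0.0334 to 0.336 over these settings, and was 0.0615, 0.109 and 0.0900 without DMOG libraries 1, 2 and 3, and 0.226, 0.226 and 0.124 without untreated libraries 1, 2 and 3. In the RefSeq annotation it lies within LOC121108487, a long non-coding gene with no row of its own.

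The other locus with an adjusted p under 0.05 was gga-mir-12208 (MSTRG.3187), one of the numbered chicken microRNAs for which no role is given here. It was listed at 0 in all 3 DMOG libraries, against 7.09, 13.73 and 18.64 FPKM in untreated libraries (adjusted p 0.00807). No fold is given because one condition is listed at 0. The DMOG values then have no spread, so the p depends on the value added before the log. The locus reached the level chosen through its untreated mean alone, 13.2 FPKM. Over 15 other settings the adjusted p ranged from 0.00430 to 0.104, and without untreated library 2 it was 0.0976. The hairpin lies within NRCAM, which encodes a cell adhesion molecule of the nervous system, and NRCAM measured 4.20, 2.56 and 3.79 FPKM in DMOG libraries, against 6.26, 6.84 and 4.71 FPKM in untreated libraries. The NRCAM values did not overlap, with a log2 fold change of -0.69 (SE 0.27). This host call ended in several settings, among them median scaling (-0.57) and quantile normalization (-0.55), and without DMOG library 2 (-0.50), DMOG library 3 (-0.75), untreated library 1 (-0.65) or untreated library 2 (-0.59), where the p rose above 0.05 or the change fell under 0.60.

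Of the 18 lower loci, 7 were listed at 0 throughout the DMOG libraries. At these 7 loci the p is subject to the same caution as that of gga-mir-12208. They also reached the level chosen through their untreated means alone. gga-mir-367, which in vertebrates belongs to the mir-302/367 cluster of pluripotent stem cells, was among them, with 10.20, 4.22 and 2.50 FPKM in untreated libraries (adjusted p 0.0768). Its neighbour in LARP7, gga-mir-1811, measured 0, 5.28 and 0 FPKM in DMOG libraries, against 6.24, 2.51 and 2.38 FPKM in untreated libraries, so its conditions overlapped. A member of the same cluster, gga-mir-302a, had a mean of 0.943 FPKM, all of it from 5.66 FPKM in DMOG library 1, and was below the level chosen. So were gga-mir-302b, above 0 only in untreated libraries 2 and 3, at 1.06 and 0.99 FPKM, and gga-mir-302d, listed at 0. Also below it, gga-mir-302c measured 0, 1.44 and 0 FPKM with DMOG, against 0, 0.49 and 0.43 FPKM without. The gene LARP7, whose protein binds 7SK RNA, measured 3.93, 1.79 and 2.25 FPKM with DMOG, against 2.35, 2.69 and 1.64 FPKM without, and was not past the limits.

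The other loci at 0 throughout DMOG and past the limits were gga-mir-1711, gga-mir-6571, gga-mir-1570, gga-mir-1659 and gga-mir-1573. In untreated libraries gga-mir-1711 measured 8.50, 13.83 and 0.95 FPKM. There gga-mir-6571 measured 3.23, 2.82 and 1.71 FPKM, the narrowest spread of the 5. For gga-mir-1570 the untreated values were 9.86, 10.72 and 0 FPKM, so that one untreated library was also at 0. The untreated values of gga-mir-1659, 3.89, 0.38 and 1.92 FPKM, and of gga-mir-1573, 4.47, 0.18 and 1.79 FPKM, spread over a wide range.

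A further 7 loci at 0 throughout DMOG were not past the limits: gga-mir-1585, gga-mir-1674, gga-mir-1603, gga-mir-6693, gga-mir-1718, gga-mir-6605 and gga-mir-1748. In untreated cells gga-mir-1674 was above 0 in a single library, at 14.55 FPKM. Conversely, 10 loci were listed at 0 in every untreated library, and none was past the limits. Of these, 8 were above 0 in a single DMOG library, such as gga-let-7k with 7.46 FPKM in DMOG library 2 and gga-mir-132c with 6.67 FPKM in DMOG library 3. The remaining pair was gga-mir-12212, with 5.19, 0 and 2.70 FPKM in DMOG libraries, and gga-mir-6556, with 4.71, 2.70 and 0 FPKM. Thus 14 of the 214 loci were at 0 throughout DMOG and 10 throughout untreated cells. All 9816 tested loci, which include these, held 27 and 18. The 9276 tested loci without a microRNA or Rfam name held 12 and 5.

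Among lower loci with some signal left in DMOG libraries, gga-mir-1655 measured 0, 1.25 and 0 FPKM with DMOG, against 6.43, 5.91 and 3.91 FPKM without (log2 fold change -2.94, SE 0.56, adjusted p 0.144). LAMC1, the laminin γ1 gene around it, measured 21.79, 36.99 and 16.08 FPKM with DMOG, against 21.23, 15.16 and 31.11 FPKM without, and the conditions overlapped there. gga-mir-1692 measured 3.33, 0 and 0 FPKM with DMOG, against 15.53, 13.17 and 5.85 FPKM without. Both loci were lower in every DMOG library than in any untreated one, but gga-mir-1655 reached the level chosen through its untreated mean alone, 5.42 FPKM. With zeros among the DMOG values, the size of the fold change depends on the value added before the log. For gga-mir-1655 it ranged from -4.50 to -2.27 over 14 other settings.

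gga-mir-1730, within the latrophilin gene ADGRL3, measured 2.04, 0.97 and 0 FPKM with DMOG, against 6.38, 4.48 and 5.01 FPKM without. gga-mir-6704 measured 0.81, 0 and 0 FPKM with DMOG, against 7.01, 3.15 and 1.71 FPKM without. gga-mir-6669 measured 0.53, 0.43 and 0 FPKM with DMOG, against 5.46, 3.25 and 1.12 FPKM without. At these 3 loci the conditions did not overlap, and the log2 fold changes were -2.22, -2.51 and -2.08. They ranged from -3.12 to -1.57, from -4.06 to -1.88 and from -3.14 to -1.58 over 14 other settings. Of these loci, gga-mir-6704 and gga-mir-6669 reached the level chosen through their untreated means alone, 3.96 and 3.28 FPKM. The remaining lower loci were gga-let-7f, gga-mir-1569, gga-mir-757, gga-mir-3532 and one of 3 loci named gga-mir-7478. gga-mir-1569, within the coactivator gene NCOA2, measured 3.77, 0.49 and 0.24 FPKM with DMOG, against 9.02, 3.59 and 4.38 FPKM without. gga-mir-757, within TRIO, measured 4.71, 0 and 0 FPKM with DMOG, against 7.47, 2.64 and 5.44 FPKM without, and gga-mir-3532, within NOVA1, 0, 0 and 3.14 FPKM against 3.78, 4.53 and 1.75 FPKM. At each of these 3 loci a single DMOG library lay within the untreated range.

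The name gga-mir-7478 stands on 13 rows of the table, of which 3 reached 1 FPKM. If the copies are near-identical, their reads could have been split among them, which was not tested. The copy past the limits (MSTRG.104634) measured 1.00, 0.98 and 0 FPKM with DMOG, against 4.61, 3.17 and 1.21 FPKM without. A second copy (MSTRG.104659) measured 1.77, 1.52 and 0.10 FPKM with DMOG, against 1.60, 0.14 and 3.58 FPKM without, and the third (MSTRG.104618) 0.25, 0 and 0 FPKM against 1.71, 0 and 4.48 FPKM. Only the first copy separated the conditions, and its value is uncertain for the reason given.

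**Figure D3:**
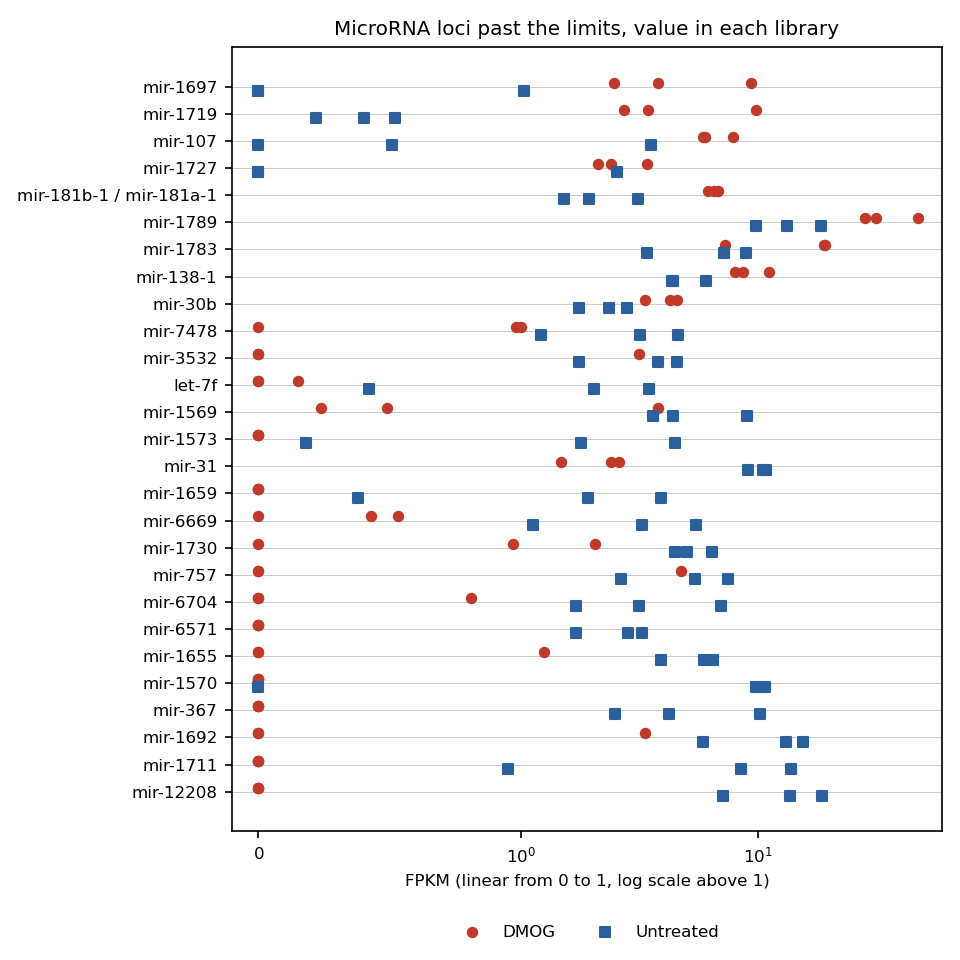
FPKM in each library for the 27 microRNA loci past the limits, ordered by fitted change, with DMOG libraries as red circles above untreated libraries as blue squares in each row. The axis is linear from 0 to 1 FPKM and logarithmic above; 7 loci have all 3 red circles at 0, while gga-mir-31 has red circles from 1.47 to 2.58 FPKM and blue squares from 9.11 to 10.83 FPKM.

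Loci higher with DMOG were more often seen in every library: 6 of the 9 were above 0 throughout, against 2 of the 18 lower ones. This difference was not tested. Of the microRNA loci above 0 in every library, 3.85% were past the limits lower, beside 4.62% of such tested loci. Past the limits higher were 11.5%, beside 2.75%. These shares rest on 2 and 6 of 52 loci. Among the 6, gga-mir-1719 reached the level chosen through its DMOG mean alone, and the gga-mir-30b locus holds only an assembled transcript. Choosing loci above 0 in every library leaves out any locus that was listed at 0 with DMOG or without. The shares therefore cannot decide whether lower or higher loci were more frequent than in the table. Among the higher loci was the one that joins gga-mir-181b-1 and gga-mir-181a-1 (MSTRG.116195), a pair cut from one transcript and known from lymphocytes and retina of mammals. It measured 6.52, 6.79 and 6.15 FPKM with DMOG, against 1.93, 3.11 and 1.51 FPKM without (log2 fold change 1.42, SE 0.29, adjusted p 0.166). The 3 DMOG values lay within 1 FPKM of each other and all above the untreated ones. The second copy of the family did not follow, with gga-mir-181a-2 at 0.67, 3.33 and 0 FPKM with DMOG, against 12.15, 6.95 and 0.47 FPKM without, and gga-mir-181b-2 just under the level chosen at a mean of 0.978 FPKM.

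gga-mir-107, which in human cells acts on the mRNA of ARNT, the partner of HIF1α, measured 5.89, 7.86 and 5.96 FPKM with DMOG, against 3.54, 0 and 0.51 FPKM without (log2 fold change 2.47, SE 0.70, adjusted p 0.360). Its host PANK1, a pantothenate kinase gene, measured 9.34, 5.78 and 6.47 FPKM with DMOG, against 4.36, 7.78 and 5.62 FPKM without. PANK1 overlapped between the conditions where gga-mir-107 did not. The log2 fold change of gga-mir-107 ranged from 1.80 to 3.45 over 14 other settings. Of the gga-mir-103 loci, which share its seed, gga-mir-103-1 was above 0 only in untreated library 3, at 2.54 FPKM, and gga-mir-103-2 was listed at 0 throughout.

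gga-mir-138-1, studied in mammalian neurons, measured 8.03, 11.18 and 8.63 FPKM with DMOG, against 4.33, 4.36 and 6.02 FPKM without (log2 fold change 0.86, SE 0.24, adjusted p 0.346). The copy gga-mir-138-2 was listed at 0 in all 6 libraries. gga-mir-1789, among the 10 highest of the 214 loci, measured 31.47, 47.67 and 28.27 FPKM with DMOG, against 18.41, 9.79 and 13.22 FPKM without (log2 fold change 1.35, SE 0.29, adjusted p 0.200). Both loci lay higher in every DMOG library.

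The zinc finger gene ZNF536 around gga-mir-1789 measured 17.80, 17.58 and 10.74 FPKM with DMOG, against 11.06, 9.32 and 16.79 FPKM without, and overlapped between the conditions. A further hairpin in ZNF536, gga-mir-1791, measured 3.77, 0 and 6.11 FPKM with DMOG, against 0, 4.44 and 4.23 FPKM without. Neither followed gga-mir-1789 past the limits.

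gga-mir-1697, within YPEL2, measured 3.77, 2.46 and 9.36 FPKM with DMOG, against 0, 1.03 and 0 FPKM without (log2 fold change 2.78, SE 0.64, adjusted p 0.223). YPEL2 measured 6.05, 7.38 and 7.39 FPKM with DMOG, against 1.35, 2.73 and 2.33 FPKM without (log2 fold change 1.53, SE 0.29, adjusted p 0.138). Hairpin and host were both higher in every DMOG library, but gga-mir-1697 reached the level chosen through its DMOG mean alone, 5.20 FPKM. The log2 fold change of gga-mir-1697 ranged from 2.13 to 4.34 over 14 other settings. gga-mir-1719 measured 3.44, 2.73 and 9.79 FPKM with DMOG, against 0.22, 0.52 and 0.40 FPKM without, and its log2 fold change was 2.54 (SE 0.51). It too reached the level chosen through its DMOG mean alone, 5.32 FPKM.

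The locus named gga-mir-30b (MSTRG.58926) measured 4.54, 3.33 and 4.24 FPKM with DMOG, against 2.35, 2.79 and 1.76 FPKM without (log2 fold change 0.70, SE 0.28). Its only transcript is one assembled from the reads and not the annotated hairpin, as is also true of gga-mir-6616, while the other 212 loci hold an annotated transcript. The row that holds the gga-mir-30b hairpin had a mean of 0.0700 FPKM. gga-mir-1783 measured 7.29, 19.26 and 18.95 FPKM with DMOG, against 3.40, 7.18 and 8.88 FPKM without, and gga-mir-1727 2.10, 2.40 and 3.40 FPKM against 0, 0 and 2.53 FPKM. Both were past the limits although the conditions overlapped, and gga-mir-1727 reached the level chosen through its DMOG mean alone, 2.63 FPKM.

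Of the 27 calls, 15 held without each library in turn, and 12 ended without at least 1. The count is a description, since the choice by level over all 6 libraries was kept in each fit. Among the 15 are gga-mir-12208, gga-mir-367, gga-mir-1711 and gga-mir-6571. They were listed at 0 throughout DMOG, so leaving out a DMOG library could not alter their fitted change. gga-let-7f lost its call without untreated library 1 (-1.48, p 0.119) or 3 (-1.81, p 0.0784), and gga-mir-6669 without untreated library 1 (-1.66, p 0.0504). gga-mir-30b lost it without DMOG library 1 (0.62, p 0.108) or 3 (0.67, p 0.0836), or without untreated library 1 (0.72, p 0.0748) or 3 (0.56, p 0.116). gga-mir-1783 lost it without DMOG library 2 (0.91) or 3 (0.92), or untreated library 1 (0.76) or 2 (1.25). The call of gga-mir-1569 ended without DMOG library 2 (-1.69) or 3 (-1.48) or untreated library 1 (-1.61), that of gga-mir-7478 without DMOG library 3 (-1.09) or untreated library 1 (-1.27) or 2 (-1.51), and that of gga-mir-757 without DMOG library 2 (-1.71) or 3 (-1.71) or untreated library 1 (-1.98) or 3 (-2.20). For gga-mir-1727 the calls ended without any library but untreated library 3, with log2 fold changes from 1.33 to 1.88, and for gga-mir-3532 without any but DMOG library 3, from -2.26 to -1.43. The calls of gga-mir-1570 ended without any but untreated library 3, those of gga-mir-1573 without any but untreated library 2, and those of gga-mir-1659 without untreated library 1 or 3.

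By level, the highest microRNA locus was gga-mir-1661 (MSTRG.45493), inside VIM, the vimentin gene and an abundant intermediate filament gene of lens cells. It measured 95.43, 72.45 and 78.11 FPKM with DMOG, against 76.66, 59.51 and 63.51 FPKM without. VIM itself measured 2280, 2072 and 1769 FPKM with DMOG, against 1625, 1616 and 1979 FPKM without. Neither was past the limits.

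The next highest was gga-mir-1744, in the semaphorin gene SEMA6D, with 26.84, 30.56 and 31.55 FPKM with DMOG, against 26.72, 24.12 and 18.42 FPKM without. Its conditions stopped just short of overlapping, and the change was not past the limits (log2 fold change 0.37, SE 0.20). SEMA6D stood at 2.33 FPKM on average, below the hairpin in it. gga-mir-1681, within DOK6, measured 22.09, 20.81 and 2.42 FPKM with DMOG, against 33.21, 33.71 and 26.26 FPKM without. There DMOG library 3 stood far below the others, and the change was not past the limits (log2 fold change -1.49, SE 0.73). It was past them in some other settings, among them without DMOG library 1 (-1.99) or 2 (-1.95).

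DOK6, a docking protein gene, measured 5.42, 7.88 and 5.79 FPKM with DMOG, against 11.33, 9.73 and 11.84 FPKM without, and was past the limits (log2 fold change -0.75, SE 0.22). The other loci among the 10 highest were gga-mir-1635 in SKI, gga-mir-6589 in WTIP, gga-mir-7468, gga-mir-1780 in PTP4A2, gga-mir-7473 in ZEB2 and gga-mir-1559 in ITGAV, with means from 12.5 to 21.3 FPKM. Of these, gga-mir-7468 alone had no overlap, with 12.43, 12.78 and 15.13 FPKM with DMOG, against 17.73, 22.99 and 17.11 FPKM without, and its log2 fold change of -0.50 (SE 0.20) was under the limit. gga-mir-1559 spread most, with 17.42, 0 and 3.09 FPKM with DMOG, against 24.06, 18.84 and 11.76 FPKM without.

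A list of 13 microRNA names known from lens and eye stood on 25 rows of the table. Of these rows 10 were among the 214 loci, 12 were listed at 0 throughout, 2 were above 0 and too low, and 1 joins TRPM3 with gga-mir-204-1. Past the limits were gga-mir-31 and gga-let-7f, lower, and the gga-mir-181b-1 and gga-mir-181a-1 locus, higher, beside 4.97% of tested loci lower and 2.84% higher. Listed at 0 were the sensory cluster gga-mir-182, gga-mir-183 and gga-mir-96, the neuronal gga-mir-124 loci, both gga-mir-26a loci, gga-mir-125b-2 and gga-mir-211. gga-mir-184, known from lens and cornea of mammals, was above 0 only in DMOG library 1, at 1.83 FPKM.

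The joined row of TRPM3 and gga-mir-204-1 measured 25.13, 24.40 and 7.61 FPKM with DMOG, against 8.17, 7.21 and 18.30 FPKM without, and cannot be divided between gene and hairpin. gga-mir-204-2, within the TRPM1 gene, measured 2.59, 0 and 0 FPKM with DMOG, against 0, 3.48 and 6.77 FPKM without. Both overlapped between the conditions.

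Of the let-7 family, which is low in stem cells and rises as cells differentiate, gga-let-7a-1 was the highest, with 14.30, 10.23 and 14.80 FPKM with DMOG, against 11.67, 4.62 and 14.36 FPKM without. gga-let-7f, from the same cluster, measured 0.15, 0 and 0 FPKM with DMOG, against 3.46, 0.42 and 2.02 FPKM without (log2 fold change -1.94, SE 0.69, adjusted p 0.476). The third of the cluster, gga-let-7d, measured 1.54, 2.59 and 3.80 FPKM with DMOG, against 1.78, 3.04 and 7.88 FPKM without. Of the 3 hairpins, which lie in the same long non-coding gene LOC112533383, only gga-let-7f separated the conditions. It stood just inside the level chosen, at a mean of 1.01 FPKM, and reached it through its untreated mean alone.

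gga-let-7b measured 2.69, 0 and 0 FPKM with DMOG, against 0, 1.75 and 4.82 FPKM without, and gga-let-7a-3 and gga-let-7j were listed at 0. The cluster of gga-mir-100 and gga-mir-125b-1 in LOC107055055 overlapped between the conditions. gga-mir-100 measured 4.30, 6.22 and 3.88 FPKM with DMOG, against 3.88, 4.96 and 4.84 FPKM without. gga-mir-125b-1 measured 2.87, 6.61 and 1.70 FPKM with DMOG, against 5.38, 9.32 and 2.22 FPKM without.

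A second list held 23 microRNA names known to respond to hypoxia or to HIF1, mostly from human and mouse cells, on 31 rows. Of these, 10 rows were among the 214 loci, 9 were listed at 0, 10 were too low and 2 join other genes. gga-mir-210a, the best known of them, was listed at 0 in all 6 libraries. Past the limits were gga-mir-31, lower, and gga-mir-107, gga-mir-138-1 and the gga-mir-181b-1 locus, higher, beside 4.97% of tested loci lower and 2.84% higher. The joined row of VMP1 and gga-mir-21 measured 17.15, 19.49 and 21.42 FPKM with DMOG, against 21.38, 22.90 and 21.33 FPKM without, and overlapped.

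The mir-17-92 cluster, which promotes cell division in mammals, lies within the span of GPC5, and its hairpins gga-mir-19b, gga-mir-92-1 and gga-mir-20a were joined with GPC5 into one locus. The hairpins with rows of their own were not past the limits. gga-mir-17 measured 2.91, 5.40 and 14.45 FPKM with DMOG, against 15.64, 10.54 and 12.12 FPKM without. gga-mir-18a measured 0, 8.66 and 0 FPKM with DMOG, against 19.31, 2.78 and 8.12 FPKM without. gga-mir-19a measured 3.30, 14.50 and 3.43 FPKM with DMOG, against 29.32, 2.91 and 0 FPKM without. Untreated library 1 was highest at all 3 hairpins, and in untreated library 3 gga-mir-19a was listed at 0 beside 12.12 FPKM for gga-mir-17. The related gga-mir-20b measured 0, 7.19 and 0 FPKM with DMOG, against 2.38, 3.17 and 2.39 FPKM without, and gga-mir-106 4.24, 0 and 0 FPKM against 0.57, 1.85 and 1.01 FPKM.

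**Figure D4:**
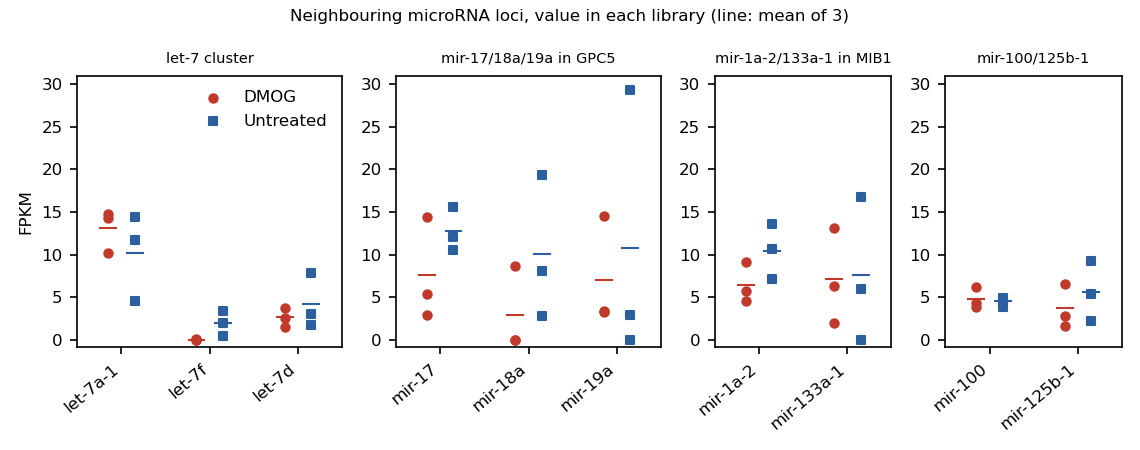
FPKM in each DMOG library (red circles) and each untreated library (blue squares) for hairpins that lie in the same gene or transcript, with a line at the mean of 3 libraries. gga-mir-19a ranged up to 29.32 FPKM in one untreated library and down to 0 in another, while gga-mir-100 stayed between 3.88 and 6.22 FPKM in all 6.

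MicroRNAs that mark other cell types were present at some loci. The muscle pair gga-mir-1a-2 and gga-mir-133a-1, within MIB1, was above 0 in most libraries: gga-mir-1a-2 measured 5.75, 4.52 and 9.19 FPKM with DMOG, against 13.54, 7.17 and 10.62 FPKM without, and gga-mir-133a-1 2.02, 6.35 and 13.12 FPKM against 0, 16.82 and 5.94 FPKM. The other markers of the muscle list were low, with MYOD1, MYOG and gga-mir-206 listed at 0 and ACTA1 at a mean of 1.40 FPKM. The endothelial gga-mir-126, within EGFL7, measured 2.55, 5.73 and 5.90 FPKM with DMOG, against 6.54, 9.22 and 7.69 FPKM without. Its conditions did not overlap and it was not past the limits (log2 fold change -0.73, SE 0.34), except without DMOG library 3 (-0.92).

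EGFL7 measured 1.31, 1.02 and 1.30 FPKM with DMOG, against 2.91, 1.39 and 1.49 FPKM without, and the 4 endothelial marker genes of the list, KDR, CDH5, EGFL7 and TIE1, summed to 7.39, 6.99 and 8.22 FPKM with DMOG, against 13.02, 9.15 and 6.82 FPKM without. These sums overlapped between the conditions. What part a differing share of endothelial cells has in the values of gga-mir-126 was not tested. Of the hairpins that mark blood cells, gga-mir-142, gga-mir-223, gga-mir-155 and gga-mir-451 were listed at 0, and gga-mir-144 was above 0 only in untreated library 3, at 0.51 FPKM. The row that joins NEK7 with the leukocyte gene PTPRC had a mean of 7.34 FPKM and cannot be divided between these genes. LCP1, the other leukocyte gene with a row, had a mean of 0.0433 FPKM. Of the epithelial hairpins, gga-mir-200a, gga-mir-429 and the gga-mir-205 loci were listed at 0. gga-mir-200b was above 0 only in untreated libraries 2 and 3, at 1.02 and 0.31 FPKM. The epithelial genes of the list were above 0 in every library. The row that joins CDH1 with another gene had a mean of 2.52 FPKM, and EPCAM 0.577 FPKM. The mesenchymal gga-mir-143 measured 0, 11.51 and 0 FPKM with DMOG, against 0, 0.12 and 3.80 FPKM without, and its neighbour gga-mir-145 3.66, 0 and 0 FPKM against 1.44, 0.20 and 1.76 FPKM. These 2 hairpins were above 0 in the same library only in untreated libraries 2 and 3. Other mesenchymal markers were low, with TWIST1, PRRX1, gga-mir-214 and gga-mir-199-2 listed at 0. COL1A1 and COL1A2 had means of 0.278 and 0.105 FPKM, and the row that joins COL3A1 with another gene 1.98 FPKM.

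Outside the naming rule, gga-mir-29b-2 was singled out after its values were seen, as one of 3 loci above the untreated range without a call, with gga-mir-1744 and gga-mir-1706. It measured 4.91, 3.93 and 8.91 FPKM with DMOG, against 3.40, 2.11 and 3.71 FPKM without (log2 fold change 0.80, SE 0.36), and was not past the limits as fitted. It was past them in some other settings, among them median scaling (0.92), quantile normalization (0.92) and leaving out DMOG library 2 (1.03). Its neighbour and seed relative gga-mir-29c measured 1.75, 0 and 14.45 FPKM with DMOG, against 2.73, 6.91 and 2.56 FPKM without. The 2 relatives did not move alike.

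Most hairpins lie within other genes. By the GRCg7b annotation, which gives spans without strand or exons and was used only for which genes contain which, 168 of the 201 matched microRNAs lie in a protein-coding gene and 16 only in long non-coding ones. For 134 of them the host had a row of at least 1 FPKM, over 122 hosts. In 107 of the 134 pairs the hairpin locus had the lower mean FPKM, and the median ratio of hairpin to host was 0.495. Spearman's rho between hairpin and host means was 0.17 over the 134 pairs, a description across loci of the same 6 libraries. The 122 host rows themselves had rho from 0.80 to 0.88 between libraries of one condition.

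Of the 27 loci past the limits, 15 had such a host. In 2 pairs the host was past the limits in the same direction, gga-mir-1697 with YPEL2 and gga-mir-12208 with NRCAM, and in none was it past them in the other direction. In 9 of the 15 pairs the fitted changes had the same sign. Over all 122 hosts, 11 (9.02%) were past the limits lower and 5 (4.10%) higher with DMOG, beside 4.97% and 2.84% of all tested loci. The largest rise among hosts stood beside a hairpin that was not past the limits. RAB11FIP4, which encodes an effector of a RAB GTPase, measured 32.92, 39.68 and 8.62 FPKM with DMOG, against 1.67, 7.14 and 2.37 FPKM without (log2 fold change 2.67, SE 0.66), while gga-mir-193a in it measured 0, 14.43 and 0 FPKM against 5.67, 1.58 and 0 FPKM.

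**Figure D5:**
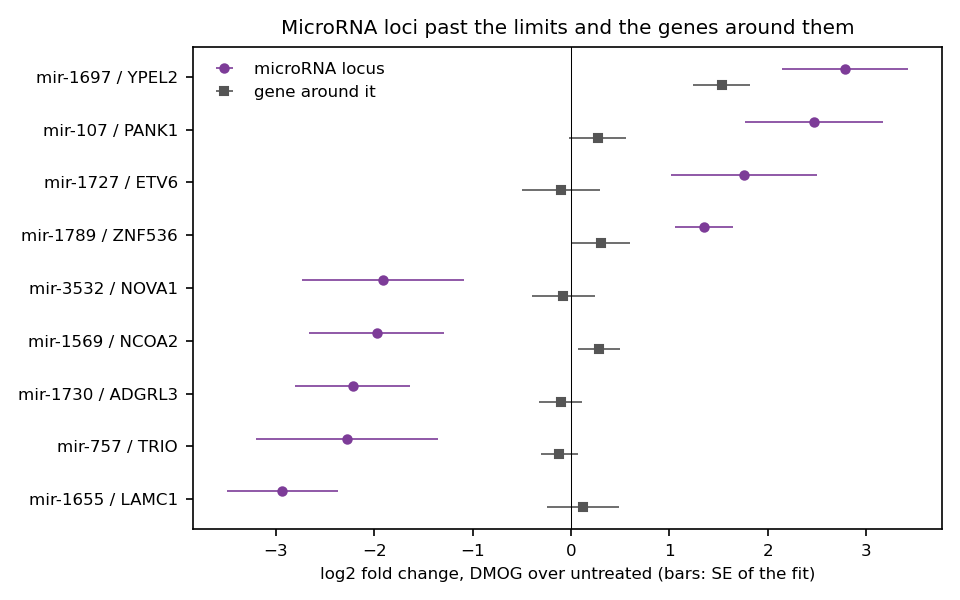
Log2 fold change of DMOG over untreated cells, with the SE of the fit as bars, for microRNA loci past the limits (purple circles) and the protein-coding genes around them (grey squares). Pairs whose hairpin is listed at 0 throughout DMOG are left out; of the 9 pairs drawn, only gga-mir-1697 in YPEL2 has both points past the limits, at 2.78 and 1.53.

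The genes that make and use microRNAs were measured in the same libraries. Of the 40 symbols in the list, 34 had a row and 31 were tested, of which 3 were past the limits lower, none higher, and none with an adjusted p under 0.05. Beside this, 4.97% of all tested loci were lower. None of the 7 tested genes of the nuclear step was past the limits: DROSHA measured 7.42, 5.80 and 5.61 FPKM with DMOG, against 5.38, 6.47 and 7.31 FPKM without. The row that joins DGCR8 with other genes measured 11.64, 19.28 and 18.89 FPKM with DMOG, against 20.17, 35.18 and 20.04 FPKM without (log2 fold change -0.57, SE 0.30). The joined row of DGCR8 did not overlap between the conditions and was lower with DMOG, while DROSHA overlapped. The row that joins DDX5 with gga-mir-3064 was higher in every DMOG library, with 88.65, 86.37 and 120.53 FPKM against 69.68, 86.09 and 83.49 FPKM. DICER1, the cytoplasmic enzyme, measured 10.77, 8.81 and 12.99 FPKM with DMOG, against 9.90, 13.55 and 10.56 FPKM without, and XPO5, the exporter of hairpins, 41.53, 45.27 and 32.84 FPKM against 43.02, 30.28 and 37.85 FPKM. DICER1 and XPO5 overlapped between the conditions.

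Of the 10 tested genes of the effector complex, 2 Argonaute genes were past the limits. AGO4 measured 4.04, 3.73 and 5.19 FPKM with DMOG, against 8.01, 8.32 and 7.99 FPKM without (log2 fold change -0.85, SE 0.22, adjusted p 0.291), and kept its call in all 15 other settings. AGO2, the Argonaute that cuts its targets, measured 3.62, 3.23 and 2.63 FPKM with DMOG, against 6.31, 4.83 and 4.70 FPKM without (log2 fold change -0.66, SE 0.25, adjusted p 0.512). Both genes were lower in every DMOG library. The call of AGO2 ended in several settings, among them a pseudocount of 1 (-0.59), median scaling (-0.54) and quantile normalization (-0.52), and without DMOG library 2 (-0.68), DMOG library 3 (-0.55), untreated library 1 (-0.53) or untreated library 2 (-0.71). AGO1 measured 11.65, 15.13 and 5.07 FPKM with DMOG, against 14.46, 11.61 and 15.82 FPKM without, and AGO3 17.31, 13.46 and 12.67 FPKM against 19.21, 16.24 and 22.24 FPKM, neither past the limits.

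LIN28B, which blocks the processing of let-7 precursors, was the third gene of the list past the limits. It measured 1.28, 0.18 and 0.30 FPKM with DMOG, against 3.09, 2.97 and 2.35 FPKM without (log2 fold change -1.73, SE 0.48, adjusted p 0.346). Every DMOG value lay below every untreated one, and the call held in all 14 other settings that included it. LIN28A was listed at 0 throughout. The 6 turnover genes, XRN1 and XRN2 among them, were not past the limits.

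At the level chosen for the 214 loci, gga-mir-34c (mean 1.01 FPKM) and gga-let-7f stood just inside, and gga-mir-6637-2 (0.995 FPKM) and gga-mir-181b-2 (0.978 FPKM) just outside. gga-mir-34c measured 4.18, 0 and 0 FPKM with DMOG, against 0, 1.87 and 0 FPKM without, and gga-mir-6637-2 3.06, 0.06 and 0 FPKM against 0, 1.55 and 1.30 FPKM. The values on the 2 sides of the level were alike in their zeros.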

How the data were processed

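RNA-seq of 3 DMOG-treated and 3 untreated libraries of primary chick lens cells was examined. Per the methods, the authors used Cutadapt for trimming and Bowtie2 with HISAT2 for mapping to galGal6 (Ensembl release 96), and assembled loci with StringTie and gffcompare. The authors deposited FPKM per library, rounded to 2 decimals. Loci can join several genes. The deposited fold changes and p-values of the authors' edgeR comparison were not used. Read counts and depths are unknown, so the precision of a value is given by the spread between libraries, and an entry of 0 is described only as listed at 0.

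The study tested counts. Here log2(FPKM + 0.5) was fitted in limma 3.58.1 (R 4.3.3) with a mean-variance trend and treatment as the only term, over loci whose mean reached 1 FPKM, adjusted by Benjamini-Hochberg over all of them. The script was tested on simulated data. Tables came from Python 3.11.15, pandas 2.3.3 and numpy 2.4.6.

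Named loci came from those with an adjusted p under 0.05 and up to 8 per direction with the largest changes and no overlap. Others came from the 10 highest, those at 0 throughout one condition and those in lists for lens, hypoxia or other cell types. Loci next to the level of 1 FPKM and cluster or seed relatives were added. Not every locus of these groups is named. The other loci past the limits were named after their values were seen. Members and lists were chosen with earlier results of these data known. No microRNA sequences are shown, and no coordinates, since the annotation used is of another build. Alternatives were other pseudocounts and filters, scalings, robust moderation, a replicate block and leaving out each library.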

Additional observations from a re-analysis of the deposited data

How the results depend on the processing

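With a mean of at least 5 FPKM, which leaves 58 of the 214 loci, 3 loci were lower and 3 higher in place of 18 and 9, the median log2 fold change was 0.24 in place of -0.12, and 1 pathway gene in place of 3 was past the limits, because most loci and both other genes are under that level. Quantile normalization gave 14 higher loci and a median of 0.12. Leaving out each library gave 16 to 27 lower loci, 8 to 15 higher loci, medians from -0.38 to -0.058 and 2 to 3 pathway genes. The share of summed FPKM, 0.489% with DMOG and 0.517% without, was 0.772% and 0.745% once Rfam-named loci were left out of the total, so the order of the conditions changed with the total. Replicate numbers did not pair the libraries (correlations of deviations -0.11, -0.17 and -0.23 for the same number), and with a replicate block 21 loci were lower and 11 higher; the block also ended the calls of NRCAM and AGO2 and added those of gga-mir-1681 and gga-mir-29b-2. No fitted direction reversed at the 32 microRNA loci followed across settings (the 27 calls and 5 others), and 15 of the 27 calls held in every setting that included the locus. For the rest the cause was not tested. The depth is unknown, and under 10 FPKM most microRNA loci were listed at 0 in at least 1 library.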
